A study of Rattus norvegicus with 6 samples.

Results

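The axon guidance ligands and receptors described here are the semaphorins of classes 3 to 7, plexins, neuropilins, ephrins, Eph receptors, netrins, Dcc and Unc5 receptors, Slits, Robos, and Rtn4 with its receptor Rtn4r. They were found by gene symbol on the array, which gave 102 of 31042 probe sets and 60 of 14217 named genes, and the brightest probe set stands for each gene. The symbol rule also took in Unc50 and Unc5cl, which are named like Unc5 but are not netrin receptors. RNA came from retinal ganglion cells of 3 adult male Brown Norway rats. Ganglion cells of both eyes carried Fluorogold injected into the superior colliculus, and hypertonic saline, injected into an episcleral vein, had kept the pressure of a single eye high for 10 days, with the fellow eye as control. Laser capture gave 2000 cells from each eye, and the amplified RNA of each eye went onto 1 array. Arrays are labelled as right eye (OD, n = 3) or left eye (OS, n = 3), and the labels leave out which of them had raised pressure. All differences are therefore OS minus OD within a rat and have no direction with respect to pressure. Whether capture was guided by the tracer, which would leave out cells that no longer carried it, is not given in the sources used here. Each eye is 1 pool of cells, so the spread between arrays includes that of capture and amplification.

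Guidance cues steer growing axons. Semaphorins act through plexins, with neuropilins as partners for the secreted class 3. Ephrins are membrane-bound ligands of the Eph receptor tyrosine kinases, netrins act through Dcc and Unc5 receptors, and Slits repel axons through Robos. In the visual system EphA and ephrin-A gradients order the ganglion cell map in the superior colliculus, Slits and Robos guide axons inside the retina and at the chiasm, and netrin at the optic disc draws axons into the nerve. Rtn4 encodes Nogo, whose receptor Rtn4r limits regrowth of adult axons. Many of these genes stay expressed in adult neurons.

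Values are intensities of probe sets on a linear scale. Because probe sets differ in how well they hybridize, levels are compared between arrays and give no order of genes. Sums over marker genes add probe sets of unequal brightness, so the brightest weigh most in them. Each array's background limit was taken from 27 bacterial control probe sets whose RNA was not added to the samples (their 95th percentile), and it lay between 261 and 591. Markers fixed for the label check were present: Thy1, Nefh, Nefm, Rbpms and Slc17a6 exceeded the limit on all 6 arrays. The 9 ganglion cell markers on the array summed to between 14816 and 22426 in OD and between 8412 and 9192 in OS, with no overlap. Markers of other cells exceeded it on all 6 arrays too, namely 4 of 7 for amacrine cells (Gad1, Pax6, Calb2, Tfap2b), 2 of 5 for Mueller cells, and 1 each of 3 for astrocytes, 5 for photoreceptors, 3 for bipolar cells and 4 for vessels. None of the 6 microglia, 2 oligodendrocyte or 3 pigment epithelium markers did, and no marker was below the limit on all 6. Summed levels did not overlap between eyes for amacrine cells (26369 to 72328 in OD, 11166 to 23650 in OS) and pigment epithelium (2794 to 17324, 636 to 2627). They overlapped for Mueller cells (4082 to 15874, 3140 to 12611), photoreceptors (4856 to 17076, 6042 to 12198), astrocytes (1291 to 3929, 2167 to 4354), bipolar cells (1216 to 2184, 1453 to 2279), microglia (1297 to 3306, 1383 to 3557), oligodendrocytes (501 to 1007, 557 to 1882) and vessels (3355 to 4708, 1619 to 10915). Single markers did not all follow the sums. All 8 ganglion cell markers past the brightness filter used below had lower means in OS, 5 of them in each rat. Nefl, Sncg and Slc17a6 had mixed directions, and Isl1, below the filter, had a higher mean in OS (1.30 ± 3.22). Of 5 amacrine markers past the filter, 4 were lower in OS in each rat and Slc6a9 had a higher mean. Gad2 (-0.17 ± 2.87) and Slc32a1 (-0.44 ± 1.52), below the filter, had mixed directions. Also below it, the astrocyte marker S100b was lower in OS (-2.59 ± 0.50) and the microglia marker Aif1 higher (2.71 ± 1.10), each without overlap between eyes. All 3 pigment epithelium markers had lower means, 1 of them in each rat. The ratio of 3' to 5' signal of the beta-actin control, a sign of RNA quality, was 1.40 ± 0.58 log2 units higher in OS (SD, n = 3 rats) and higher in each rat. That of Gapdh was not, at -0.59 ± 2.08, with mixed directions. The part of these differences in the values below was not tested. In RNA pooled from many cells, fewer cells of a type and less RNA per cell cannot be told apart.

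Of the 60 genes, 9 exceeded the background limit on all 6 arrays (15.0%, against 15.7% of the brightest probe sets of all named genes), and 9 exceeded it on 0 arrays (15.0% against 10.5%). The count above it on all 6 was 4 with the highest control as the limit and 23 with the median control. In rat 1, 39 genes of the OD array and 31 of the OS array exceeded it; rat 2 had 23 on either array, and rat 3 had 35 and 34, where the shares of all genes above it were 65.6% and 53.0%, 41.1% and 40.8%, and 61.9% and 54.1%. The 9 genes above the 95th percentile limit everywhere were the semaphorins Sema3f, Sema4f and Sema6b, the plexins Plxna1, Plxna2 and Plxna3, the neuropilin Nrp2, the ephrin Efna5 and the Eph receptor Epha4. No netrin, Dcc, Unc5, Slit, Robo or Nogo gene was among them. Nrp2, a receptor subunit for class 3 semaphorins, gave 4062, 1310.0 and 5888 in OD and 3854, 3861 and 3810.4 in OS of rats 1 to 3. Its OS values lay close together, and its OD value in rat 2 was the lowest of the 6. Sema6b, a transmembrane semaphorin that signals through A-type plexins, gave 1255, 2697 and 1467 in OD and 1774.5, 2150.1 and 1908.5 in OS, and its eyes overlapped. Efna5, a ligand of EphA receptors used in retinotectal mapping, gave 1848, 898.5 and 1235 in OD and 1192, 846 and 1832.5 in OS. The values of rat 2 were the lowest in both eyes.

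**Figure D1:**
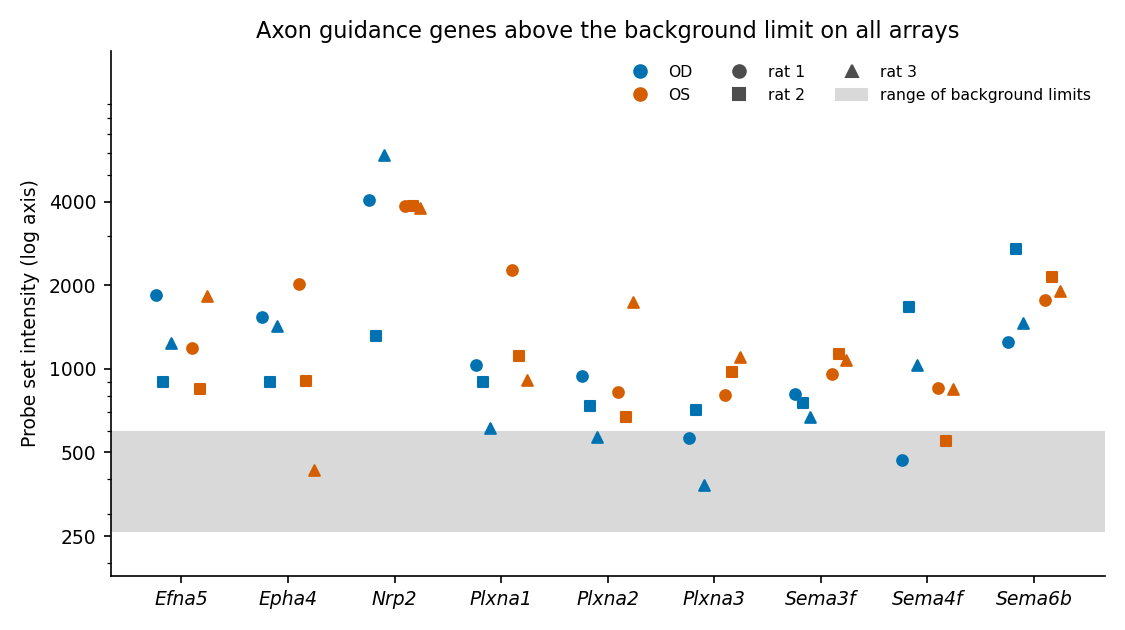
Intensity on a log axis of the 9 axon guidance genes that exceeded the background limit on all 6 arrays, with OD in blue, OS in orange, a symbol for each rat and the range of the array limits (261 to 591) in grey. The eyes overlap in 7 of the 9 genes, while the 3 OS values of Plxna3 and Sema3f lie above their 3 OD values.

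The comparison of the eyes was made over all 15521 probe sets that reached the median brightness, with limma and rat as a block. Of the 60 genes, 36 passed this filter (60.0%, against 60.4% of all named genes). By limma, 0 of the 36 passed an adjusted p of 0.05, where 2 of the 15521 probe sets did (0.0129%; 18 to 59 probe sets when 1 rat was left out, and still 0 of the guidance genes). At an unadjusted p under 0.05 there were 2 of 36, Robo2 and Slit2, both lower in OS, which is 5.56% against 6.91% of all probe sets, or 4.31% lower and 2.60% higher (5 genes without rat 2, when Rtn4, Rtn4r and Epha10 joined them). The smallest limma adjusted p was 0.395. The filter took the mean of both eyes, and Robo2 and Slit2 passed it through OD. Their mean log2 values in OD were 10.22 and 9.77, above the cut of 8.12. In OS they were 7.23 and 7.61, below it. The OS means of Rtn4r, Epha6 and Efna1 were also below the cut, as were the OD means of Sema5a and Sema4g. Mean values were lower in OS for 22 genes and higher for 14. The median difference was -0.21 on the log2 scale, against -0.07 over the 8594 genes tested, and its value in rats 1 to 3 was -0.03, -0.02 and -0.21. The median size of the difference, whatever its sign, was 0.51 for the guidance genes and 0.58 for all genes. Direction was the same in 3 of 3 rats for 13 of 36 genes (36.1%, against 28.5% of all probe sets), 7 lower in OS (19.4% against 14.0%) and 6 higher (16.7% against 14.5%). OS and OD did not overlap for 5 of 36 (13.9% against 9.95%), namely Robo2, Sema3e and Efnb3 with OS below OD (8.33% against 5.08%) and Plxna3 and Sema3f with OS above OD (5.56% against 4.88%). These shares describe a list chosen by name, in which 1 gene makes up 2.78%. Standard errors from the fit ran from 0.46 to 1.20 with a median of 0.75 (log2 scale). The 95% interval reached past a 2-fold difference in both directions for 15 of the 36 genes, and in at least 1 direction for all 36.

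**Figure D2:**
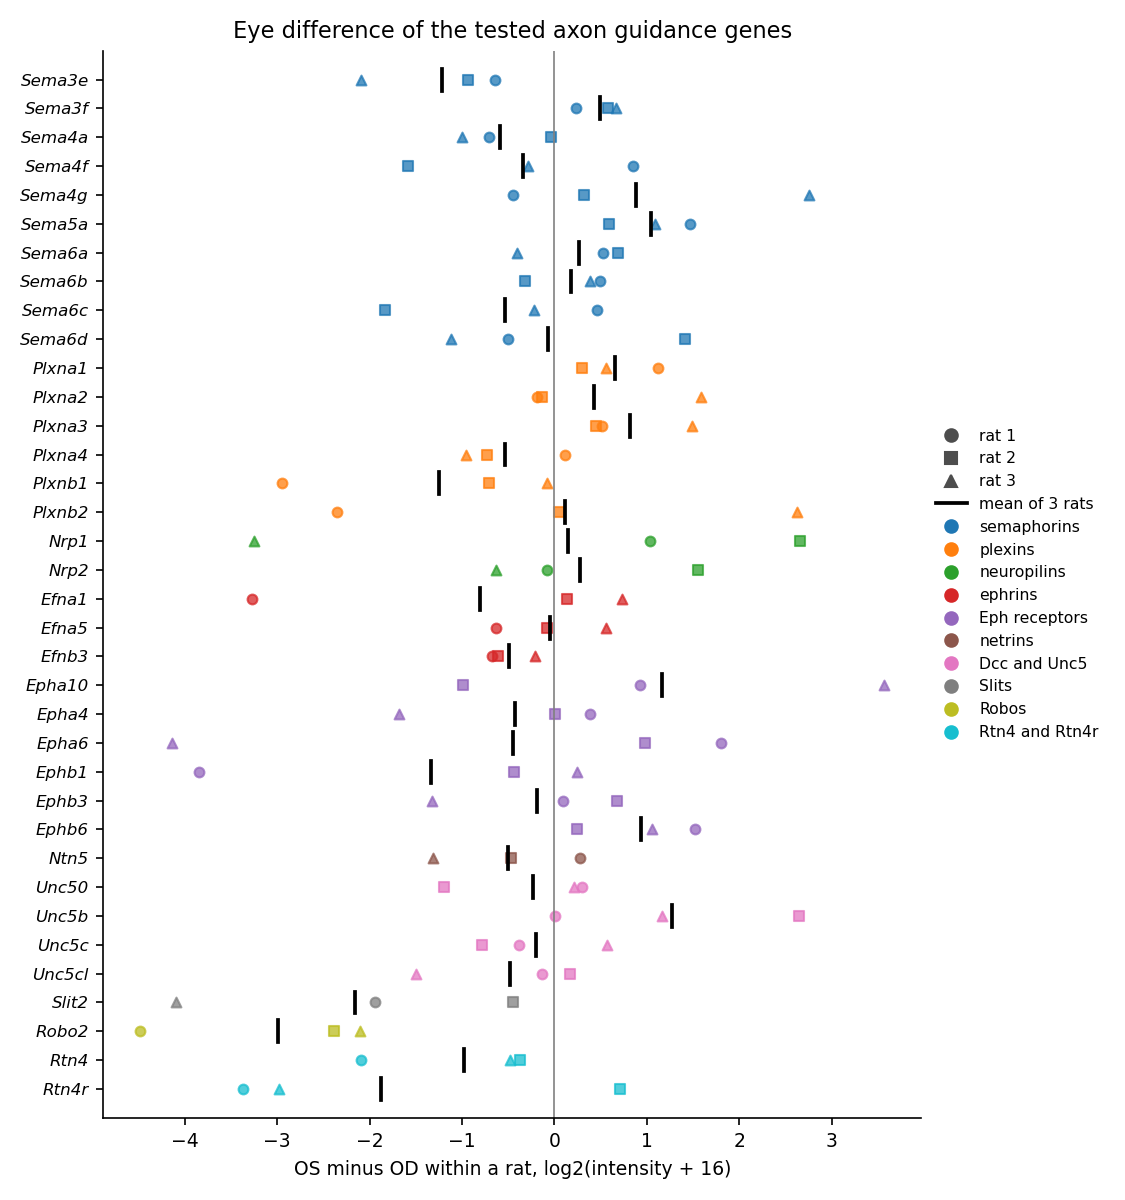
Difference OS minus OD of log2(intensity + 16) in each rat (symbols) and its mean (black bar) for the 36 tested genes, coloured by family. The means run from -2.99 for Robo2 to 1.27 for Unc5b, and for most genes the 3 rats fall on both sides of 0.

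Among semaphorins, 10 of 17 genes were tested, 5 with a higher and 5 with a lower mean in OS. Sema3e encodes a secreted semaphorin that binds plexin D1 directly. It gave 805, 1052 and 1748 in OD and 512, 544 and 398 in OS, so that each OS value was below each OD value. The difference was -1.22 ± 0.77 (SD, n = 3 rats, limma adjusted p = 0.744). Only 1 of its OS arrays exceeded the background limit, so this size is uncertain, and it was -0.78 without rat 3. Sema3f, a secreted repellent that acts through neuropilin 2, differed in the other direction, with 814, 754 and 672 in OD and 960.3, 1135 and 1076 in OS. Its values were close together within each eye and the difference was small, 0.49 ± 0.23, with a 95% interval of -0.74 to 1.73 from the limma fit (adjusted p = 0.884). Sema5a, a transmembrane semaphorin that inhibits ganglion cell axons, gave 175, 336.5 and 143 in OD and 514, 515 and 322 in OS. In 3 of 3 rats OS was the higher eye (limma adjusted p = 0.861). This probe set exceeded the background limit on 0 OD arrays and 1 OS array, so the size is uncertain. The second tested probe set of Sema5a differed by 0.22 ± 1.91, with mixed directions. Sema4f, found at synapses, gave 468, 1675 and 1037 in OD and 855, 549 and 848 in OS and went different ways in different rats (-0.34 ± 1.22, and 0.28 without rat 2). For Sema6b the difference was 0.18 ± 0.44, with a 95% interval of -0.81 to 1.17, and 0.03 to 0.44 with a rat left out.

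The other 5 tested semaphorins, Sema4a (-0.59 ± 0.49), Sema4g (0.88 ± 1.67), Sema6a (0.27 ± 0.59), Sema6c (-0.53 ± 1.17) and Sema6d (-0.07 ± 1.32), had adjusted p-values of 0.866 or above. Sema4a was lower in OS in 3 of 3 rats, and the other 4 had mixed directions. Sema4g and Sema6d, which had the widest spread of the 5, each combined a rat above 0 by more than 1 log2 unit with a rat below 0, and the mean of Sema4g was -0.06 without rat 3.

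Plexins and neuropilins are the receptors of these ligands, and 6 of 8 plexins and both neuropilins were tested. Plxna3 gave 563, 711 and 382 in OD and 808, 975 and 1104 in OS, with the 3 OS values above the 3 OD values. The difference was 0.82 ± 0.59 with a 95% interval of -0.55 to 2.19 (limma adjusted p = 0.826), and 0.48 without rat 3. Plxna1 was 1033, 898 and 612 in OD and 2262, 1111 and 910.0 in OS. In 3 of 3 rats OS was the higher eye, by 0.66 ± 0.42 (adjusted p = 0.836; 0.43 without rat 1), but the eyes overlapped because OD of rat 1 was above OS of rat 3. For Plxna2 the values were 941, 737 and 569 in OD and 823, 673 and 1749 in OS, and its mean difference of 0.43 ± 1.01 came from rat 3 alone, being -0.16 without that rat. Plxnb1, the receptor of Sema4d, gave 646, 1087 and 783 in OD and 69.6, 658 and 740.4 in OS. The OS value of rat 1, below that array's limit, was far under the other 5 and carried most of the difference of -1.25 ± 1.51 (adjusted p = 0.799). Without rat 1 the difference was -0.39. Plxna4 (-0.53 ± 0.57) and Plxnb2 (0.11 ± 2.49) had mixed directions. So did Nrp2 (0.28 ± 1.13, 95% interval -0.68 to 1.24, -0.35 without rat 2 and 0.70 with probe sets averaged) and Nrp1 (0.15 ± 3.05), whose differences ran from -3.25 in rat 3 to 2.66 in rat 2. A-type plexins had higher means in OS for 3 of 4 members, and 0 of them passed the test. The 2 tested probe sets of Plxna3 had about the same mean difference. The 250 bases before its start lie at chrX:157266857-157267106 on the plus strand (RefSeq, GRCr8). They are shown 5′ to 3′ because they hold 1 GC box, a letter pattern common in promoters without TATAAA, in capitals and on the strand opposite to the gene.
Plxna3: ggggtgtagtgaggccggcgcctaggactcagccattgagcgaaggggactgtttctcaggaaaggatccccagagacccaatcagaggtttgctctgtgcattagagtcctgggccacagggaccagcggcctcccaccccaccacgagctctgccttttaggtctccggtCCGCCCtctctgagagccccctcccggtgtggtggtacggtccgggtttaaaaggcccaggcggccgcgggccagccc

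Among ephrins, 3 of 5 genes were tested, and all 3 had a lower mean in OS. Efnb3, a transmembrane ligand of EphB receptors and EphA4 that acts as a midline barrier, gave 930.2, 827 and 601 in OD and 580.1, 537.5 and 517 in OS. Its eyes did not overlap, and the difference was -0.49 ± 0.25 (limma adjusted p = 0.9). The difference of Efna5 was -0.05 ± 0.59, with a 95% interval of -1.16 to 1.06, and 0.24 without rat 1. Efna1 (-0.80 ± 2.16) rested on rat 1, where OS was 33.2 against 460.1 in OD, while rats 2 and 3 were higher in OS and gave a mean of 0.44.

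Among Eph receptors, 6 of 12 were tested, 2 with a higher and 4 with a lower mean in OS. Epha4, which binds both classes of ephrins, gave 1543, 900.3 and 1422 in OD and 2023.5, 904 and 432 in OS. OS of rat 3 was the lowest value, and rats 1 and 2 were not lower in OS. The difference was -0.43 ± 1.10 (adjusted p = 0.898), and 0.20 without rat 3. Ephb1, the receptor that directs uncrossed ganglion cell axons at the chiasm, gave 1032, 1173 and 789 in OD and 56.7, 863 and 945 in OS. Only rat 1 had a large difference, and the mean of -1.34 ± 2.20 became -0.09 without it. Ephb6 (0.94 ± 0.65) was higher in OS in 3 of 3 rats, and Epha10 (1.17 ± 2.29), Epha6 (-0.45 ± 3.22) and Ephb3 (-0.19 ± 1.03) had mixed directions. The mean of Epha10 was -0.03 without rat 3. Ephb6 and Epha10 lack kinase activity.

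Netrins and their receptors were near the background limit on many arrays. Ntn5 was the netrin that passed the filter, at 942.5, 782 and 718 in OD and 1149, 559 and 279 in OS, with mixed directions and a difference of -0.50 ± 0.80 that was -0.10 without rat 3. Unc5b, a repulsive netrin receptor, gave 937, 107 and 419.9 in OD and 942, 759.7 and 960.4 in OS. It was higher in OS in 3 of 3 rats, but by only 0.01 in rat 1, and the mean of 1.27 ± 1.33 was the highest of the group (limma adjusted p = 0.787). The mean was 0.59 without rat 2 and 1.91 without rat 1. Its second probe set, below the filter, was also higher in OS in each rat but exceeded the limit on 1 array only. Unc5c gave 989, 517 and 450.3 in OD and 759, 295 and 674 in OS (-0.20 ± 0.69), with no shared direction. Its mean difference was 0.10 without rat 2, and 0.62 when its probe sets were averaged. Dcc, the attractive netrin receptor, was below the filter and exceeded the limit on 2 arrays, with 308.5, 345 and 58.6 in OD and 787, 204 and 251 in OS. The genes Unc50 (-0.23 ± 0.83) and Unc5cl (-0.48 ± 0.89) had mixed directions.

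Robo2, the main Slit receptor of ganglion cells, had the largest difference of the 36 genes. Its brightest probe set gave 1235, 655 and 2005 in OD and 39.9, 113 and 456 in OS. All 3 OD arrays and 1 OS array exceeded the background limit, and each OS value was below each OD value. The difference was -2.99 ± 1.30, with a 95% interval of -4.86 to -1.12 and a limma adjusted p of 0.395 (0.137 to 0.953 over the other settings tried). A second tested probe set of Robo2 did not show it. That probe set gave 412, 844 and 36.2 in OD and 694, 874 and 202 in OS with OS the higher eye in 3 of 3 rats, by 0.95 ± 1.02 (adjusted p = 0.864). Its other probe set, below the filter, differed by 0.55 ± 0.91. The sign of the Robo2 difference therefore depended on the probe set. The 250 bases before its annotated start, at chr11:26526413-26526662 on the minus strand (RefSeq, GRCr8), are shown 5′ to 3′ for the gene with the largest difference. Capitals again mark the 1 GC box, on the strand opposite to the gene.
Robo2: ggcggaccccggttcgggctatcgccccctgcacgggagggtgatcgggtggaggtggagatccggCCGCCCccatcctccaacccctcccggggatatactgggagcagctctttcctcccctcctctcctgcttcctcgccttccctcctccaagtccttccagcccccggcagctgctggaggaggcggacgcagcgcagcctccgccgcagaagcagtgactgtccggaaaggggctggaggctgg

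Slit2, a ligand of Robo2, gave 501, 951 and 1322 in OD and 119, 694 and 61.9 in OS with its brightest probe set. It was lower in OS in each of the 3 rats, with a difference of -2.16 ± 1.84 (limma adjusted p = 0.672), and 1 of 3 OS arrays exceeded the limit. The eyes overlapped, since OS of rat 2 was above OD of rat 1. The summed ganglion cell and amacrine markers were likewise lower in OS in each rat, and their part in the Robo2 and Slit2 differences was not tested. Without rat 3 the difference of Slit2 was -1.19. Its 2 other probe sets were both below the filter. Of these, 1 exceeded the limit on 2 OD and 0 OS arrays and was lower in OS in each rat (-2.10 ± 1.16). The other exceeded it on 0 OD and 2 OS arrays and was higher in OS in each rat (1.54 ± 1.79). The sign of the Slit2 difference therefore also depended on the probe set. Slit1 differed in the direction opposite to the brightest probe set of Slit2, in a range near background. Its only probe set gave 22.3, 28.1 and 76.4 in OD and 793, 444 and 235 in OS, so the eyes did not overlap, but it was below the filter and exceeded the limit on 0 OD arrays and 1 OS array. The OS values of rats 2 and 3 were below their arrays' limits, so no lower bound on the fold is given. Slit3, Robo1 and Robo3 were below the filter and exceeded the limit on at most 1 array.

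**Figure D3:**
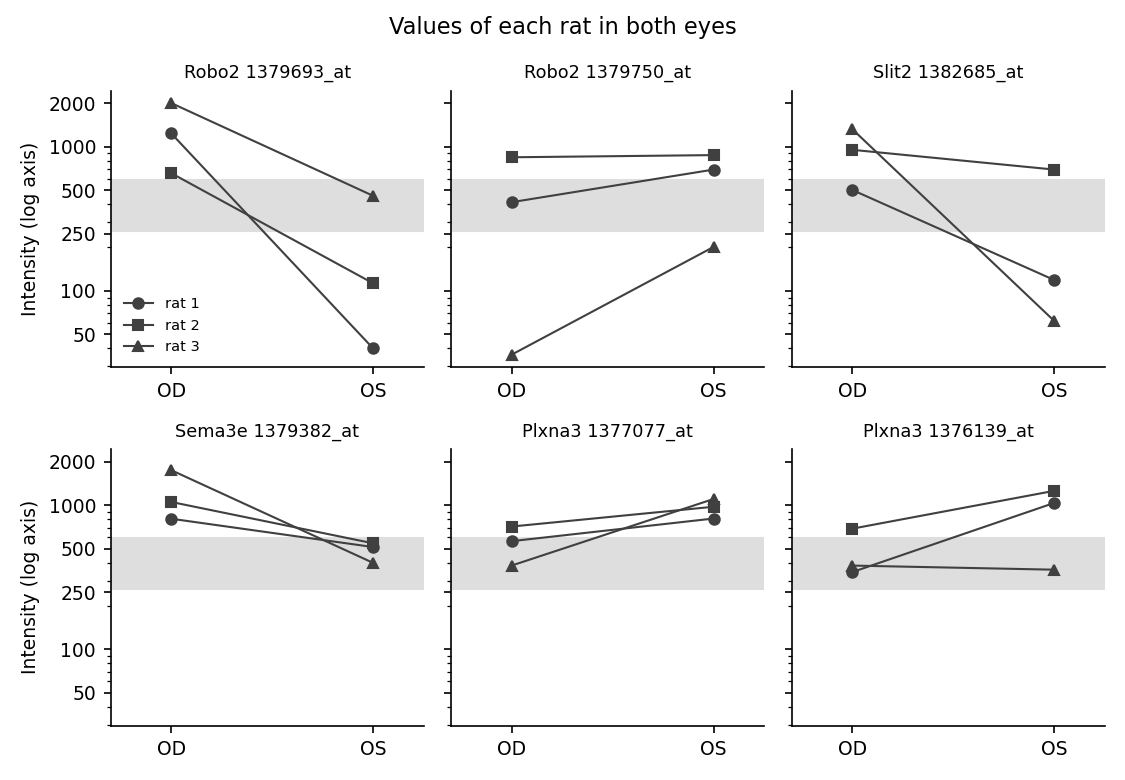
Intensity on a log axis in OD and OS of each rat (lines) for 2 probe sets of Robo2, the brightest probe sets of Slit2 and Sema3e, and 2 probe sets of Plxna3, with the range of background limits (261 to 591) in grey. The 2 Robo2 probe sets run in opposite directions. Both Plxna3 probe sets have a higher mean in OS, and in the second rat 3 is lower in OS.

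Rtn4 gave 1490.1, 814 and 2336.5 in OD and 337, 627 and 1671 in OS with its brightest probe set, and it was lower in OS in each rat, with a difference of -0.98 ± 0.97 (limma adjusted p = 0.787). Rat 1 differed most, and the mean was -0.42 without it and -0.22 with probe sets averaged. The values of rat 3 were above the other 4 in both eyes. On its second tested probe set OS was the higher eye in 3 of 3 rats, by 0.55 ± 0.17. The gene makes several isoforms, and which of them each probe set reads was not tested. The receptor Rtn4r gave 652, 577 and 1322 in OD and 48.4, 953 and 154 in OS. It was lower in rats 1 and 3 and higher in rat 2, with a mean difference of -1.88 ± 2.25 (adjusted p = 0.733), and -3.18 without rat 2. A second tested probe set of Rtn4r gave 894, 1038.5 and 539 in OD and 38.9, 327 and 160.1 in OS, lower in OS in each rat (limma adjusted p = 0.652). It exceeded the limit on 3 OD and 0 OS arrays, so mean OD was at least 1.75-fold higher on the arrays measured. This bound leaves out the spread between rats, and the interval from the fit, -4.55 to -0.34 (log2), includes smaller differences. This probe set passed the filter through OD, as its mean log2 was 9.66 in OD and 7.22 in OS, below the cut of 8.12. The other probe set of Rtn4r exceeded the limit on 0 arrays.

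Agreement between probe sets of a gene was checked for the 26 genes with more than 1. In 15 of them the mean differences of some probe sets were above 0 and others below, probe sets near background included. Among the 9 genes with more than 1 probe set past the filter, this held for 5 (55.6%, against 55.4% of the 1517 such genes on the whole array), namely Nrp1, Plxna2, Plxna4, Robo2 and Rtn4. The 4 that shared a sign were Plxna3, Rtn4r, Sema5a and Sema6a. For Plxna3 both probe sets had about the same mean difference, 0.82 and 0.77. The second was slightly lower in OS in rat 3 (-0.09), and its eyes overlapped. For Sema6a the brightest differed by 0.27. Its second tested probe set exceeded the limit on 0 OD and 3 OS arrays, with mean OS at least 1.86-fold higher on the arrays measured. The interval from the fit, -0.12 to 4.16 (log2), included differences in both directions. Another Sema6a probe set, below the filter, exceeded the limit on 3 OD and 0 OS arrays. There mean OD was at least 1.14-fold higher on the arrays measured. Both bounds leave out the spread between rats.

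**Figure D4:**
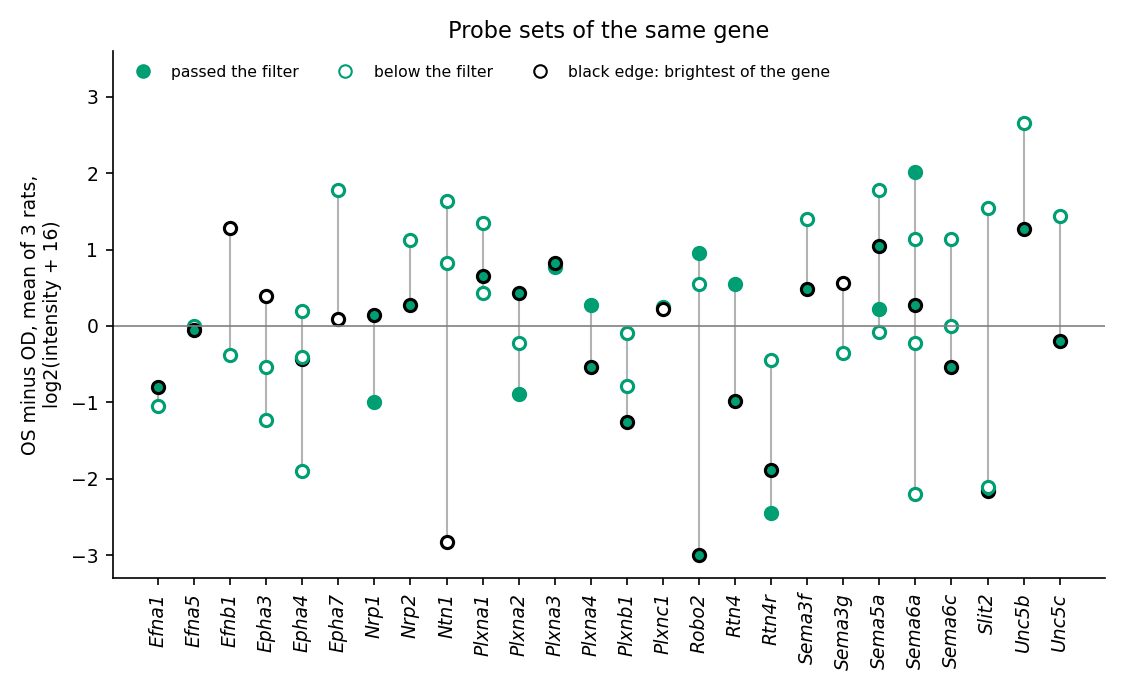
Mean difference OS minus OD of each probe set of the 26 genes with more than 1, with filled points for probe sets that passed the filter and a black edge for the brightest of a gene. Differences of probe sets at or below the limit in an eye are plotted as measured. The lines of 15 genes, Robo2, Ntn1 and Sema6a among them, cross 0.

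The 24 genes below the filter exceeded the background limit on at most 3 arrays, and 9 of them on 0. Just inside the filter, set at a mean of 8.12 on the log2 scale, was Plxnb2 with 8.26, and just outside it were Plxnc1 and Dcc with 8.09. In a fit of all probe sets without the filter, 5 of the 60 genes had an unadjusted limma p under 0.05 (8.33%, against 6.26% of all 31042 probe sets), and 2 of these were below the filter: Slit1, higher in OS, and Ntn1, lower in OS. Their adjusted p-values were 0.708 and 0.736. Ntn1, the netrin of the optic disc, gave 709.6, 196 and 327.5 in OD and 30.8, 48.4 and 33.3 in OS. It exceeded the limit on 2 OD arrays and on 0 OS arrays, and with its 2 other probe sets on 0 arrays. Sema3d gave 17.7, 229 and 97.5 in OD and 452, 338 and 656 in OS, above the limit on 0 OD and 2 OS arrays. The OS value of rat 2 was below its array's limit, so no lower bound on the fold is given. The eyes of Epha2 did not overlap either, with OS above OD, nor did those of Epha5, with OS below OD, but Epha2 exceeded the limit on 1 array and Epha5 on 0.

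Variation between animals was compared with the same model, by a moderated F test over the 3 rats with both of their eyes. It describes the animals and is not a condition of the study. Of the 15521 probe sets, 390 passed an adjusted p of 0.05 (2.51%), and 0 of the 36 guidance genes did; without rat 3 the count over all probe sets was 6. At an unadjusted p under 0.05 there was 1 of 36 (2.78%, against 13.0% of all probe sets). This was Ephb3, a receptor for B-type ephrins, at 994, 129 and 2476 in OD and 1061, 216 and 975 in OS (limma adjusted p = 0.101). Both values of rat 2 were well below the other 4 and below that rat's limits. In 15 of the 36 genes both arrays of a rat were above, or both below, the other 4 (41.7%, against 41.5% of all probe sets). The rat that stood apart differed between genes. Both arrays of rat 1 were highest for Epha4 and lowest for Sema4a, both arrays of rat 2 were lowest for Efna5 and highest for Sema6b, and both arrays of rat 3 were highest for Rtn4.

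Genes that act with these ligands and receptors were listed by role, and of 65 such genes 61 were on the array and 44 were tested. By limma, 0 of the 44 passed an adjusted p of 0.05 between eyes and 1 had an unadjusted p under 0.05 (2.27%, against 6.91% of all probe sets). Mean values were lower in OS for 20 and higher for 24, with a median of 0.05 against -0.07 over all genes tested. OS and OD did not overlap for 3 of the 44 (6.82%, against 9.95% of all probe sets), 1 below and 2 above. Chn1 encodes alpha-chimaerin, a Rac-inactivating protein that acts downstream of EphA4. It exceeded the limit on all 6 arrays and gave 6085, 2679 and 12267 in OD and 1679, 2526 and 2462 in OS. Its difference was -1.41 ± 1.17 (limma adjusted p = 0.492), nearly all of it in rats 1 and 3. Without rat 2 the adjusted p was 0.047, under the other alternatives it ran from 0.306 to 0.953, and with its probe sets averaged the difference was -0.53. The next by p were Nfasc, which encodes the axonal adhesion molecule neurofascin (-1.17 ± 0.81, adjusted p = 0.759), and Dpysl5, of the family that transmits semaphorin signals (-0.85 ± 0.89, adjusted p = 0.776). Among the 28 cytoplasmic mediators tested, the mean was lower in OS for 13 and higher for 15. For co-receptors and adhesion molecules the counts were 6 and 3 of 9, and for other cues and receptors 1 and 6 of 7.

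Between rats, 0 of the 44 partner genes passed (against 2.51% of all probe sets) and 3 had an unadjusted p under 0.05 (6.82% against 13.0%). Dpysl2, the collapsin response mediator of semaphorin 3A, gave 5168, 887 and 12144 in OD and 1755, 1919 and 2977 in OS (limma adjusted p = 0.163). OD was highest in rat 3 and lowest in rat 2. Without rat 1 the adjusted p of Dpysl2 was 0.00249, and under the other alternatives it ran from 0.0844 to 0.966. The other 2 were Vav2 (adjusted p = 0.217), an exchange factor activated by Eph receptors, and Nck2 (adjusted p = 0.258), an adaptor of ephrin and Eph signals.

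Promoter sequences from RefSeq (GRCr8), covering 250 bases before to 50 after the annotated start, were found for 45 of the 60 genes. A GC box, searched as GGGCGG on both strands, was present in 27 of 45 (60.0%, against 57.5% of the 11733 genes of the array with a sequence), and TATAAA on both strands in 0 of 45 (against 8.45%). The median number of CG pairs was 18, against 19. Of the 9 genes measured on every array, 6 had a sequence and 2 of these held a GC box (33.3%), against 25 of the other 39 (64.1%), a description with no test. The windows shown for Robo2 and Plxna3 are examples of these CG-rich starts, with 18 and 19 CG pairs in their 300 bases. A match is a description of letters and not a bound site.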

How the data were processed

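The authors deposited 1 intensity per probe set and array on a linear scale, from Affymetrix arrays. The submitters' processing notes name GCOS, with version and algorithm not given in the sources used here. RNA was isolated and linearly amplified, and 10 µg was labelled with biotin, per the labels' protocols. The 2% trimmed mean was 500.1 on every array, as global scaling of the arrays would give, and no further normalization was applied. Log2 values were computed after adding 16, which understates folds of dim probe sets. Probe sets from the median of mean log2 up (8.12) were tested in limma 3.58.1 (R 4.3.3) with eye and rat as factors, an intensity trend in eBayes, 2-sided p-values and Benjamini-Hochberg adjustment over all 15521. With 2 residual degrees of freedom against 19.4 of the prior, p-values rest mostly on spread pooled over probe sets. Differences are means of 3 within-rat log2 differences, ± their SD, and 95% intervals are from the fit. The code of the fit was run on simulated data with independent normal noise of the fitted variances. That run checks the code and not how well the model describes these arrays. Lower bounds on a fold are set against the limits of the dimmer eye. They are given only where all its arrays were at or below the limit and all arrays of the brighter eye exceeded it. Such bounds hold for the means of the arrays measured and leave out the spread between rats. The number of arrays limits precision.

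Arrays were grouped by the eye in their titles. Eyes are paired by the number that their titles share. It was read as the number of the rat, which the titles do not spell out. Deviations from the group means correlated at 0.109, 0.122 and 0.326 within rats 1 to 3, and at 0.104 and 0.088 between eyes of rats 1 and 2. The 4 pairs of rat 3 with another rat correlated at -0.197 to -0.164. Genes were named by the platform annotation's single symbol; 20826 probe sets had 1, 436 several and 9780 none. All 102 guidance probe sets matched the reference gene table, with 0 symbols changed. The genes and lists were chosen with earlier results of these data known. Genes named with values were those above the limit on all 6 arrays, those of the same sign in 3 rats with a mean difference of at least 1 (log2), those with an unadjusted p under 0.05 between eyes or an adjusted p under 0.05 between rats, the gene with the highest mean log2 intensity of each family (a naming rule, which gives no order of expression), and the 3 partners with the smallest p in each comparison. Any other gene with values was singled out after its values were seen. Alternatives covered the offset, normalization, filter, prior variance, pairing, probe sets of a gene, array weights, the background limit and leaving out each rat. Neither the filter at the background limit nor array weights was planned; both were chosen after seeing the data.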

Additional observations from a re-analysis of the deposited data

How the results depend on the processing

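No guidance gene passed the threshold between eyes or between rats under any alternative. The smallest adjusted p ran from 0.137 (without rat 2) to 0.953 (without the block) between eyes, and from 0.0614 (offset 64) to 0.987 (without rat 3) between rats. The numbers in the titles, read as rats, pair the eyes. Without the replicate block, 0 probe sets were called between eyes against 2 with it, and with a random replicate block 0. The block changed no call of a guidance or partner gene. Probe sets called between eyes were also 0 with the 75th percentile filter, the filter at the background limit, no intensity trend, offset 1 or quantile normalization, 1 with a robust prior, 7 with array weights, and 9 with no filter or with offset 64. They were 18 to 59 when a rat was left out. Guidance genes at an unadjusted p under 0.05 numbered 0 of 21 with the 75th percentile filter and 0 of 24 with probe sets averaged, where neither Robo2 nor Slit2 was tested, and 1 of 27 with the filter at the background limit, where Slit2 was not tested. They numbered 5 of 60 with no filter and 2 to 5 with a rat left out. Their median difference was -0.03 with no filter and -0.39 to -0.13 with a rat left out. Partner genes called numbered 0 to 1 in both comparisons with a rat left out.

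Between rats, 152 probe sets were called with the 75th percentile filter, 180 with the filter at the background limit, 0 with no intensity trend, 238 with quantile normalization and 6 to 620 with a rat left out, against 390. Genes above the limit on all 6 arrays numbered 4 with the highest control as the limit and 23 with the median control. For the 18 genes named by rule, 7 of the settings (filters, prior and block) leave the difference as it is. Of 135 values under the others, 126 kept their sign and 9 changed it. With a rat left out, differences ran from -0.36 to 0.24 for Efna5, -0.84 to 0.20 for Epha4, -0.35 to 0.74 for Nrp2, -0.16 to 0.73 for Plxna2, -0.93 to 0.28 for Sema4f and -0.58 to 0.10 for Unc5c. Quantile normalization gave 0.04 for Efna5, and averaging probe sets gave -0.23 for Plxna2 and 0.62 for Unc5c. The causes were not tested. On every array, 9 of the 60 genes exceeded the background limit (15.0%, against 15.7% of the brightest probe sets of all named genes).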
